A study of Mus musculus with 6 samples.

Results

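ATP-binding cassette (ABC) transporters were followed in the top lip of Gtf2ird1 knockout (KO) and wild type (WT) mice. They were taken as the rows of the count table whose symbol begins with Abca, Abcb, Abcc, Abcd, Abce, Abcf or Abcg and goes on with a digit. Of 48 such rows, 39 entered the test, which held 15009 genes, and 9 did not. Entry required 3 or more libraries at 1 CPM or above, where CPM is the count of a gene scaled to the library total. RNA-Seq was performed on 3 WT and 3 KO libraries, with 1 mouse behind each. All mice were adult females, aged 2 to 6 months, on the C57BL/6J background. The KO mice carried the targeted Gtf2ird1 tm1Hrd mutation, and the labels name no other allele and no treatment in either genotype. Labels such as WT1 and KO3 below are the genotype and replicate number of a library.

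ABC proteins bind and hydrolyse ATP through a conserved cassette and, in most cases, use the energy to move a substrate across a membrane. The A subfamily moves mainly lipids, the B subfamily holds drug and bile pumps beside half-transporters of mitochondria and lysosomes, and the C subfamily holds the multidrug resistance proteins and the sulfonylurea receptors. The D subfamily works in peroxisomes and lysosomes, and the G subfamily exports sterols and drugs. Members of the E and F subfamilies have no membrane-spanning part and act on ribosomes. In skin the family is best known for Abca12, which loads glucosylceramide into the lamellar granules of upper keratinocytes and so supplies the lipid barrier.

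Library totals ran from 20164081 counts in KO1 to 29491767 in KO2, and 3 counts corresponded to between 0.0986 and 0.154 CPM. Gtf2ird1 itself was higher, not lower, in the libraries labelled KO, at 166, 162 and 144 CPM against 78.2, 70.2 and 70.7 CPM in WT (log2 fold change 1.11 ± 0.13, SE; quasi-likelihood adjusted p = 0.0018). A count over the whole gene does not tell a disrupted transcript from an intact one, so this value does not check the labels, and the libraries are called by their labels throughout. KO3 stood nearer to WT than the others did, with a correlation of 0.948 to 0.955 with the WT libraries over all tested genes against 0.907 to 0.933 for KO1 and KO2. Defining markers of keratinocytes, such as Krt5 and Krt14, and of skeletal muscle were abundant in every library. In bulk tissue, fewer cells of a type and less RNA per cell cannot be told apart.

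The sequences upstream of 3 family genes are shown first. Abcb5 and Abca12 are the members with the largest rises, and Abcb11 is the family gene just below the expression limit whose counts were also higher in the libraries labelled KO. GTF2IRD1 is a DNA-binding protein that recognises a short GATT core, which was searched on both strands as GGATTA, as GGATTG, as AGATTA and as AGATTG. Each sequence is the 250 bases before the RefSeq start (build GRCm38.p6), written 5′ to 3′ on the strand of the gene, and capitals mark a match to this core. The Abcb5 window is chr12:118966422-118966671 on the minus strand, the Abca12 window is chr1:71414911-71415160 on the minus strand, and the Abcb11 window is chr2:69342617-69342866 on the minus strand.
Abcb5: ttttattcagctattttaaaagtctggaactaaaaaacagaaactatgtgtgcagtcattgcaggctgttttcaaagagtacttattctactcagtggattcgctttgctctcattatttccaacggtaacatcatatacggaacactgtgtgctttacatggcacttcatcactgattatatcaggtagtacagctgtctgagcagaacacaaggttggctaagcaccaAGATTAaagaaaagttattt
Abca12: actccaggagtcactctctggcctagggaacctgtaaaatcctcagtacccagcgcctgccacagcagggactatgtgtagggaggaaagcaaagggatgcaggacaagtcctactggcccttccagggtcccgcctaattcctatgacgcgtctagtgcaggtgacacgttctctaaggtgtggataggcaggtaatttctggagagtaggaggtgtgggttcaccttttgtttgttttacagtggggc
Abcb11: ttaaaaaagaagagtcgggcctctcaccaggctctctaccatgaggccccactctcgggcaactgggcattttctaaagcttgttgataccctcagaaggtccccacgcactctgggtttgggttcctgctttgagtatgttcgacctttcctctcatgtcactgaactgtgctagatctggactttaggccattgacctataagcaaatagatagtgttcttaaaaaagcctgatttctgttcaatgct
The Abcb5 window held 1 match, AGATTA, which lay 20 bases before the start. The windows of Abca12 and Abcb11 held no match. The core was present in 26.8% of all 32851 promoter windows of the same length and in 10 of 34 windows of the members, 29.4%, so a match is common and is a description only. GC content was 36.8% for Abcb5, 53.2% for Abca12 and 46.4% for Abcb11, against a median of 61.0% over the member windows, which cover 28 of the 39 genes, and 52.4% over all windows. CpG dinucleotides numbered 3 for Abcb5, 5 for Abca12 and 4 for Abcb11, against a median of 13 over the member windows and 6 over all windows. The AP-1 motif TGANTCA was present in 6.75% of all windows and in 0 of the 34 member windows, and TATAAA was present in 12.4% of all windows and in 3 of the 34, those of Abca1, Abca4 and Abcb6.

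Abcb5, Abca12 and Abcc3 rose in the libraries labelled KO, and no member fell at the same threshold. These 3 of 39 members passed an adjusted p of 0.05 (edgeR quasi-likelihood test, adjusted over all tested genes), a share of 7.69% against 6.47% of all genes in either direction. By direction, the shares over all genes were 4.38% higher and 2.09% lower. At an unadjusted p under 0.05, 13 members passed, 8 higher and 5 lower, which is 33.3% of the members against 29.6% of all genes. Here the shares over all genes were 13.5% higher and 16% lower. The 2 groups of libraries did not overlap for 13 members, again 33.3%, against 31.5% of all genes. The share of members with a log2 fold change above 0 was 48.7%, against 48% of all genes, and the medians of the log2 fold change were -0.09 for the members and -0.02 for all genes. Abcb5 entered the test only through its KO libraries, and without it 2 of 38 members, 5.26%, passed the adjusted threshold and 12 of 38, 31.6%, the unadjusted one. The shares of the family and of all genes that passed both changed with the test and with the library left out. The exact test of edgeR passed 7 members, 4 higher and 3 lower, which is 17.9% against 14.9% of all genes. DESeq2, run on all family rows, passed 6 higher, Abcb11 among them, and 1 lower, which is 16.7% of the 42 rows given an adjusted p against 14.2% of all genes given one, and limma-voom passed 3 higher and 0 lower, against 6.3% of all genes. Without KO3 the quasi-likelihood test passed 6 higher and 4 lower, 26.3% of 38 members against 33% of all genes, and without KO2 it passed Abcc3 alone, 2.7% of 37 members against 1.53% of all genes. Without WT1, WT2, WT3 or KO1 that test passed 2 members each time, 5.13, 5.26, 5.13 and 5.41% in that order. The shares of all genes there were 2.32, 3.64, 2.44 and 2.17%. Abcb5 was not tested in the fits without KO1, KO2 or KO3, since it then missed the filter, so its absence there is not a lost call.

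**Figure D1:**
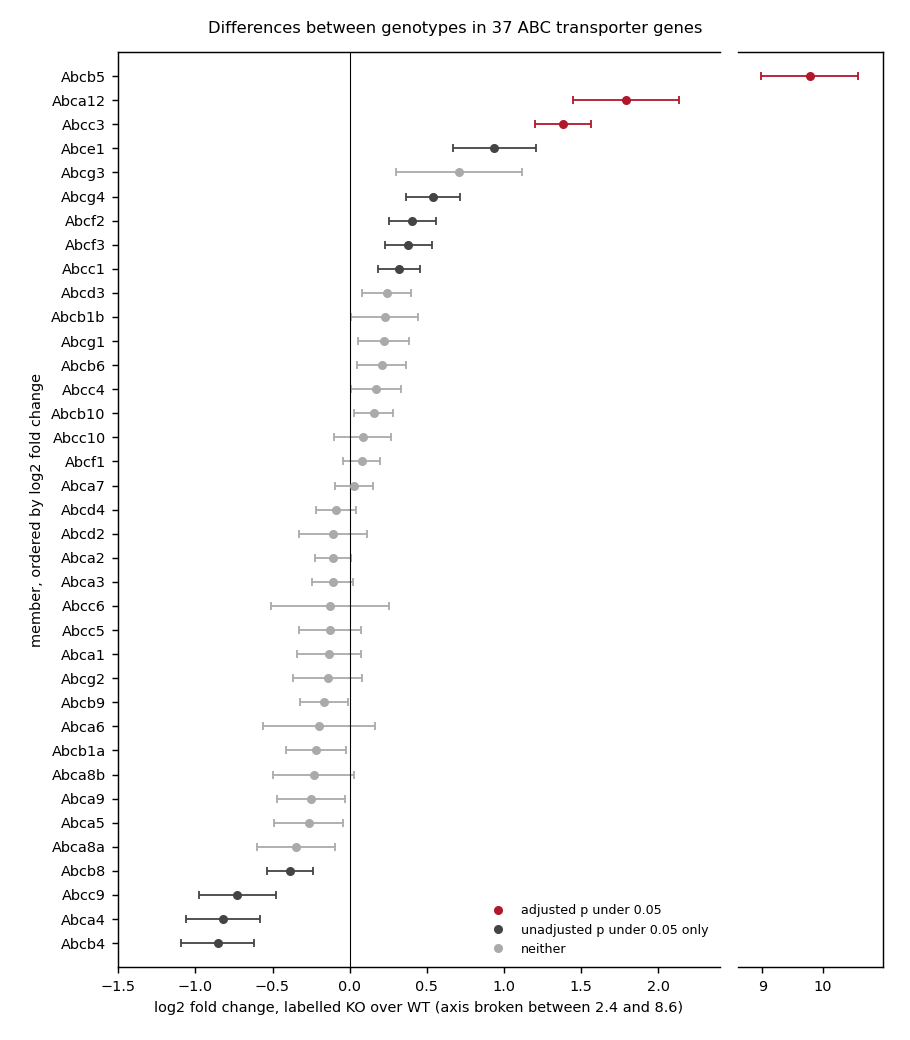
Log2 fold change (KO minus WT, horizontal axis) of 37 ABC members with bars of 1 standard error from the edgeR quasi-likelihood fit, ordered by that value. The axis is broken between 2.4 and 8.6. Red points are the 3 members that passed an adjusted p of 0.05, and all lie to the right of 0. Abcb5, 1 of the 3, entered the test only through its KO libraries, so it could lie only there. Dark points passed an unadjusted p of 0.05 only, grey points neither. The fitted value of Abcb5 depends on the prior count because the WT libraries are at or near 0.

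Abcb5 is a drug efflux pump of the B subfamily that is best known from melanocytes, melanoma and limbal stem cells. It lies on the minus strand at chr12:118867824-118966421, with 28 exons in the longest transcript, and no annotated gene overlaps it. The table held 1, 0 and 0 counts in WT1, WT2 and WT3 and 351, 761 and 145 counts in KO1, KO2 and KO3. On the CPM scale this was 0.0363, 0 and 0 in WT and 18.0, 25.02 and 6.63 in the libraries labelled KO. Every KO library was far above every WT library. Set against 3 counts in each WT library, the KO mean of 16.5 ± 9.28 CPM (SD, n = 3) was at least 134-fold higher. Abcb5 reached 1 CPM in the KO libraries only, so it could enter the test only by being higher there, and its values are given as a description with no p.

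None of the melanocyte markers rose with Abcb5. The summed level of the 8 markers, of which 6 were tested, was between 55.0 and 71.7 CPM in WT and between 48.5 and 52.5 CPM in the libraries labelled KO. None of the 6 passed with the quasi-likelihood test, the exact test, DESeq2 or limma-voom, and 5 had a log2 fold change below 0. Only Sox10 had an unadjusted p under 0.05, with 10.5 ± 2.39 CPM in WT and 6.46 ± 1.46 CPM in KO (SD, n = 3). None of the 8 was at 0 in any library. The nearest tested protein-coding genes on either side of Abcb5 were Sp4 at 566.4 kb and Itgb8 at 191.6 kb, with log2 fold changes of -0.17 and 0.28 and adjusted p of 0.613 and 0.572 (quasi-likelihood). Macc1, at 347.8 kb, had 1.59 with an adjusted p of 0.0703 in the same test.

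The other pumps of this group are Abcb1a and Abcb1b, the paired mouse forms of the multidrug pump P-glycoprotein, Abcb4, which moves phosphatidylcholine into bile, and Abcb11, the bile salt export pump. Abcb4 had 17.2, 19.0 and 11.8 CPM in WT and 6.70, 10.03 and 9.69 CPM in the libraries labelled KO. No KO library reached the lowest WT library, and the means were 16.0 ± 3.74 and 8.81 ± 1.83 CPM (SD, n = 3). The log2 fold change was -0.86 ± 0.24 (SE), at an unadjusted p of 0.00679 (quasi-likelihood adjusted p = 0.0707). Abcb4 therefore missed the threshold in that test. Of 10 alternatives it passed 2, the exact test (adjusted p = 0.0145) and DESeq2 (adjusted p = 0.0247). Of 6 fits with a library left out it passed 1, that without KO3 (quasi-likelihood adjusted p = 0.022), where 33% of all genes passed. The skeletal muscle markers were also lower in the libraries labelled KO, with a summed level of 12530 to 17854 CPM in WT and 5116 to 10795 CPM in KO and none at 0 in a library. All 11 were lower at an unadjusted p under 0.05, and 2 passed the quasi-likelihood test, 9 the exact test, 8 DESeq2 and 3 limma-voom. Per 1000 CPM of those markers, Abcb4 stood at 0.761 to 1.51 in WT and 0.898 to 1.49 in KO, and the groups overlapped. The part of muscle RNA in the Abcb4 values was not tested.

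Abcb1a and Abcb1b lie beside Abcb4 within 299.2 kb of chromosome 5, and neither passed the test. Abcb1a had 7.84 ± 1.22 CPM in WT and 6.72 ± 0.88 CPM in KO, and Abcb1b had 7.73 ± 1.57 and 9.04 ± 1.58 CPM (SD, n = 3). The authors counted uniquely mapped reads, so reads that fit both genes of the pair may have been lost.

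Abcb11 stood just outside the filter and is given as a description. Its third-highest library had 0.946 CPM before normalization, below the limit of 1, and the next gene outside was Abcc8 at 0.726. Just inside were Abcg3 at 1.09 and Abcc6 at 1.76. The counts of Abcb11 were 9, 14 and 11 in WT and 79, 120 and 21 in the libraries labelled KO. These correspond to 0.327, 0.595 and 0.495 CPM in WT and 4.04, 3.95 and 0.96 CPM in KO, with KO3 far below KO1 and KO2 but above all WT libraries. Exons of Gm13613 and Gm13614 overlap Abcb11 on the opposite strand. In a fit without the filter the log2 fold change was 2.71 ± 0.51 (SE, edgeR quasi-likelihood adjusted p = 0.0115), and no other family gene below the filter passed there. Of the remaining 8, Abca17 (2.31, adjusted p = 0.1) and Abcc8 (-0.84, adjusted p = 0.25) had the lowest p in that fit, and Abca13, Abca14, Abcc2, Abcc12, Abcg5 and Abcg8 had adjusted p of 0.452 to 0.984.

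**Figure D2:**
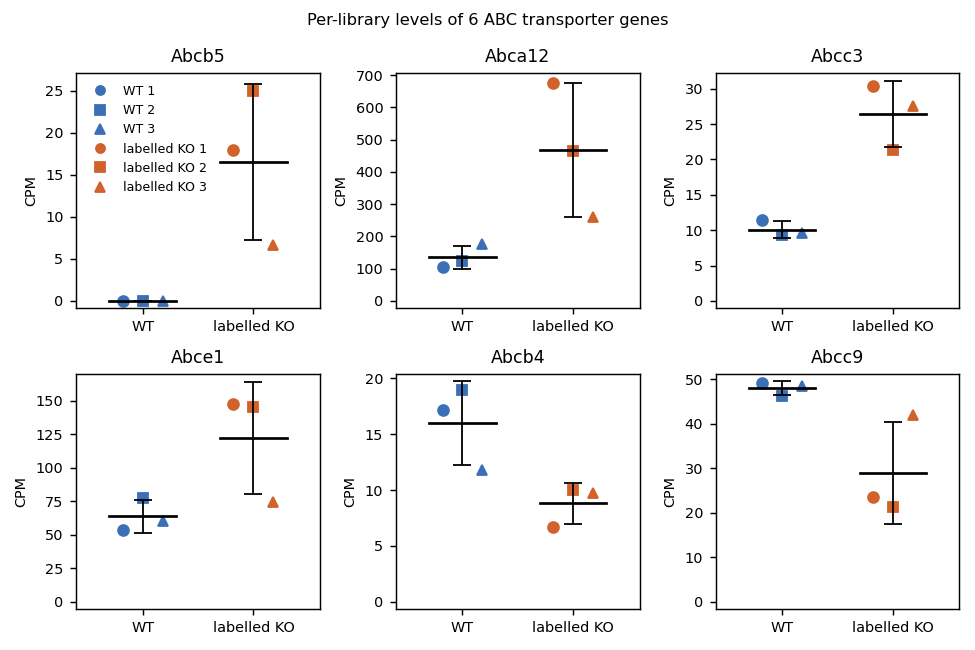
Level in CPM of 6 ABC members in each of the 3 WT and 3 KO libraries, 1 point a library, with the group mean and SD. The KO points lie above all WT points for Abcb5, Abca12 and Abcc3, below them for Abcb4 and Abcc9, and overlap them for Abce1 through KO3.

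Abca12 was the lipid exporter that rose. It lies on the minus strand at chr1:71242276-71414910, with 53 exons in the longest transcript. The WT libraries had 105, 125 and 175 CPM and the libraries labelled KO had 677, 466 and 262 CPM. The groups did not overlap, but both were wide, with means of 135 ± 36.0 and 468 ± 208 CPM (SD, n = 3), a 3.46-fold difference. The log2 fold change was 1.79 ± 0.34 (SE, edgeR quasi-likelihood adjusted p = 0.0231). The call depended on the library left out. The quasi-likelihood adjusted p was 0.113 without WT1, 0.0775 without WT2, 0.0504 without WT3 and 0.0888 without KO2. It was 0.0438 without KO1 and 0.000639 without KO3. The share of all genes that passed was 6.47% with every library and 1.53 to 3.64% without WT1, WT2, WT3 or KO2. Over all 6 left-out fits the log2 fold change of Abca12 stayed between 1.495 and 2.09. Abca12 took 6.43, 6.59 and 10.1% of all ABC counts in WT1, WT2 and WT3 and 26.6, 20.5 and 14.0% in KO1, KO2 and KO3, without correction for gene length. Summed over the family without Abca12, the libraries held 1534 to 1772 CPM in WT and 1613 to 1868 CPM in KO, and these ranges overlapped.

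Keratinocyte markers were measured beside Abca12, since the gene is expressed in the upper epidermis. The summed level of 12 suprabasal and granular markers was 23832 to 29160 CPM in WT and 32435 to 49752 CPM in the libraries labelled KO. Much of this sum was Krt1, with means of 8019 CPM in WT and 18218.5 CPM in KO, and Krt10, with 8715 and 13573.5 CPM. Of the 12 markers, 8 had a log2 fold change above 0 and 4 below, the granular markers Lor (-0.32) and Flg2 (-0.17) among the latter. Of these markers Ivl rose and Krt2 fell in the quasi-likelihood test, and none was at 0. The higher markers numbered 5 at an unadjusted p under 0.05, 5 with the exact test, 5 with DESeq2 and 2 with limma-voom, and each tool passed 1 as lower. Per 1000 CPM of these markers, Abca12 stood at 3.61, 4.29 and 7.35 in WT and at 13.6, 10.9 and 8.07 in KO, a 2.13-fold difference of the means without overlap. The 7 basal markers, of which none passed with any of the 4 tools and none was at 0, summed to 10798 to 11788 CPM in WT and 10204 to 12053 CPM in KO. The part of keratinocyte composition in the Abca12 values was not tested.

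Among genes listed for the epidermal barrier lipids, the number that passed depended on the test. Of 20 listed genes, 3 rose and 1 fell in the quasi-likelihood test. The counts were 6 and 1 with the exact test, 10 and 1 with DESeq2 and 3 and 0 with limma-voom, and the median log2 fold change was 0.49 against -0.02 over all genes. Cers3, which makes ceramides with very long acyl chains, rose from 57.7 ± 6.77 to 150 ± 37.9 CPM (SD, n = 3; log2 fold change 1.38, quasi-likelihood adjusted p = 0.00745). Abhd5, a lipase cofactor, rose by 0.81 and Degs1, the sphingolipid desaturase, by 0.63 on the log2 scale, with adjusted p of 0.011 and 0.0367 in that test. Smpd1, the acid sphingomyelinase, fell by 0.67 (adjusted p = 0.0469).

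No other lipid exporter of the A subfamily passed the adjusted threshold. Abca4, which clears retinoids in photoreceptors, had 3.12, 3.66 and 4.63 CPM in WT and 1.79, 2.50 and 2.103 CPM in the libraries labelled KO. The KO values all lay below the WT values, with a log2 fold change of -0.82 ± 0.24 (SE, unadjusted p = 0.00891, quasi-likelihood adjusted p = 0.0784). It passed 1 of 10 alternatives, the exact test (adjusted p = 0.0412), and 1 of 6 left-out fits, that without KO3 (quasi-likelihood adjusted p = 0.0448). On the opposite strand 2 annotated genes, Gm43157 and Gm43158, overlap it. Abca1, the exporter of cholesterol to apolipoprotein A-I, had 116 ± 17.0 CPM in WT and 106 ± 26.2 CPM in KO. The remaining values were 78.0 ± 1.91 and 72.4 ± 4.27 CPM for Abca2, 47.8 ± 1.34 and 44.3 ± 4.74 CPM for Abca3, the surfactant lipid transporter, and 53.0 ± 4.44 and 54.1 ± 2.41 CPM for Abca7 (SD, n = 3).

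The genes of the Abca5 to Abca9 group lie together on chromosome 11, within 405.5 kb, and are thought to move lipids. All 5 had a log2 fold change below 0, from -0.35 for Abca8a to -0.20, and none had an unadjusted p under 0.05 or passed with any of the 4 tools. Abca8a had 65.2 ± 22.3 CPM in WT and 51.3 ± 10.4 CPM in KO. Its neighbour Abca8b had 30.0 ± 8.16 and 25.5 ± 7.24 CPM, and reads that fit both genes may have been lost. Abca9 had 35.1 ± 8.99 and 29.5 ± 5.21 CPM, Abca5 had 17.8 ± 2.07 and 14.8 ± 4.01 CPM, and Abca6 had 8.16 ± 2.78 and 7.11 ± 2.96 CPM (SD, n = 3). Each difference was within the spread of the libraries, and the direction rested on WT2, since Abca6, Abca8a, Abca8b and Abca9 lay above 0 without it and Abca6 also did without KO3. The summed level of 9 dermal fibroblast markers was 7020 to 9081 CPM in WT and 3078 to 7251 CPM in KO, with 9 of 9 below 0, 3 of them at an unadjusted p under 0.05, none at 0 and none passing the quasi-likelihood test (1 with the exact test and 1 with DESeq2), and its part in these values was not tested.

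Among the multidrug resistance proteins, Abcc3 rose and 5 others did not pass. Abcc3 exports glucuronide conjugates and bile salts across the basolateral membrane. It lies on the minus strand at chr11:94343295-94392997, has 31 exons in the longest transcript and overlaps no annotated gene. The WT libraries had 11.4, 9.27 and 9.62 CPM and the libraries labelled KO had 30.4, 21.3 and 27.5 CPM. The lowest KO value lay well above the highest WT value, and the means were 10.1 ± 1.14 and 26.4 ± 4.66 CPM (SD, n = 3), a 2.62-fold difference. The log2 fold change was 1.39 ± 0.18 (SE, edgeR quasi-likelihood adjusted p = 0.0038). Abcc3 kept the call in all 10 alternatives and in all 6 left-out fits, where the log2 fold change ran from 1.33 to 1.58. Per 1000 CPM of the suprabasal markers its mean was 1.76-fold higher in KO, without overlap. Its nearest tested protein-coding neighbours Ankrd40, at 1.45 kb, and Cacna1g, at 15.4 kb, had log2 fold changes of -0.61 and -0.49 and adjusted p of 0.113 and 0.258 in the same test.

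Abcc1, which exports glutathione conjugates and leukotriene C, had 156, 196 and 177 CPM in WT and 237, 213 and 212 CPM in the libraries labelled KO. The groups did not overlap, and the log2 fold change was 0.32 ± 0.14 (SE, unadjusted p = 0.0444, quasi-likelihood adjusted p = 0.159). Abcc4, an exporter of cyclic nucleotides and prostaglandins, had 47.3 ± 8.38 CPM in WT and 53.3 ± 4.69 CPM in KO, and Abcc5, an exporter of cyclic nucleotides, had 69.5 ± 13.6 and 63.5 ± 12.8 CPM. Abcc6, whose loss in humans causes ectopic mineralization, had 1.88 ± 0.543 and 1.69 ± 0.826 CPM, and Abcc10 had 16.4 ± 2.56 and 17.4 ± 2.61 CPM (SD, n = 3). These 4 did not differ beyond their spread. Of 9 other genes of efflux and detoxification, 2 rose and 0 fell in the quasi-likelihood test. Nfe2l2, a transcription factor that drives antioxidant and conjugation genes, rose by 1.03 on the log2 scale (adjusted p = 0.00307), and its target Nqo1, a quinone reductase, rose by 1.15 (adjusted p = 0.00184). The median log2 fold change of the 9 was 0.18, with 7 above 0 and 2 below, Hmox1 at -0.30 and Gsr at -0.22.

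Abcc9 is the sulfonylurea receptor that forms the regulatory part of ATP-sensitive potassium channels in vascular smooth muscle, pericytes and skeletal muscle. It lies on the minus strand at chr6:142587862-142702315, and exons of 5330439B14Rik overlap it on the opposite strand. It had 49.2, 46.2 and 48.5 CPM in WT and 23.5, 21.4 and 42.0 CPM in the libraries labelled KO. WT was tight, KO1 and KO2 were near each other, and KO3 lay close to WT without overlapping it. The log2 fold change was -0.73 ± 0.25 (SE, unadjusted p = 0.0191, quasi-likelihood adjusted p = 0.105). It was -1.09 with an adjusted p of 0.00109 without KO3, and its adjusted p was 0.0358 with the exact test. Abcc9 passed in no other of the 6 left-out fits and in no other of the 10 alternatives.

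Both channel pores had values in the same direction without passing the quasi-likelihood test or DESeq2, although Kcnj11 passed the exact test. Kcnj8, which lies 16.2 kb from Abcc9 and pairs with it in vessels, had 8.48 ± 1.19 CPM in WT and 5.42 ± 2.46 CPM in KO, and Kcnj11 had 9.81 ± 2.48 and 4.68 ± 2.57 CPM (SD, n = 3), with quasi-likelihood adjusted p of 0.199 and 0.115. The 9 mural cell markers summed to 548 to 597 CPM in WT and 398 to 528 CPM in KO, with 8 of 9 below 0, 1 fallen (Tagln) and none at 0. Per 1000 CPM of these markers Abcc9 stood at 83.8, 84.3 and 81.3 in WT and at 59.0, 45.04 and 79.5 in KO, still without overlap. Per 1000 CPM of the skeletal muscle markers it stood at 2.75 to 3.69 in WT and 3.17 to 4.59 in KO, and these ranges overlapped. The part of either cell type in the Abcc9 values was not tested.

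Abcb6, Abcb8, Abcb9 and Abcb10, half-transporters of mitochondria and lysosomes, did not pass with any of the 4 tools. Abcb8, a part of a mitochondrial potassium channel, had 56.3, 43.6 and 54.4 CPM in WT and 40.8, 35.4 and 41.7 CPM in the libraries labelled KO. The groups did not overlap, although WT2 and KO3 differed by under 2 CPM, with a log2 fold change of -0.39 ± 0.15 (SE, unadjusted p = 0.0313, quasi-likelihood adjusted p = 0.133). Abcb10, needed for haem synthesis, had 40.1 ± 2.78 CPM in WT and 44.7 ± 2.24 CPM in KO (SD, n = 3), without overlap but with an unadjusted p of 0.251 in the quasi-likelihood test. The means were 20.3 ± 2.44 and 23.5 ± 2.58 CPM for the porphyrin transporter Abcb6 and 12.9 ± 1.37 and 11.5 ± 0.347 CPM for Abcb9, a peptide transporter of lysosomes (SD, n = 3). The 13 genes of haem and iron-sulfur synthesis had a median log2 fold change of -0.13, with 0 passing the quasi-likelihood test, 3 lower at an unadjusted p under 0.05, 1 lower with the exact test and 0 with DESeq2.

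Abcd2, Abcd3 and Abcd4 of the D subfamily were without a call by any of the 4 tools. Abcd2, a fatty acid transporter of peroxisomes, had 12.2 ± 2.72 CPM in WT and 11.3 ± 2.19 CPM in KO. Abcd3, a transporter of branched and dicarboxylic acids, had 157 ± 25.2 and 185 ± 20.3 CPM, and the lysosomal cobalamin transporter Abcd4 had 21.6 ± 0.949 and 20.3 ± 0.908 CPM (SD, n = 3). Of 14 genes of peroxisomal biogenesis and beta-oxidation 0 passed with any of the 4 tools, 3 were lower at an unadjusted p under 0.05, and the median log2 fold change was -0.18.

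The soluble ATPases of the E and F subfamilies all had values above 0, from 0.08 to 0.94 on the log2 scale, but none of the 4 passed the adjusted threshold. Abce1, which splits ribosomes into subunits after termination, had 53.7, 77.5 and 60.2 CPM in WT and 147, 146 and 74.2 CPM in the libraries labelled KO. KO1 and KO2 lay far above WT, and KO3 lay within its range. The log2 fold change was 0.94 ± 0.27 (SE, unadjusted p = 0.00842, quasi-likelihood adjusted p = 0.077), and it was 1.203 (adjusted p = 0.00152) without KO3. The exact test and DESeq2 gave adjusted p of 0.00802 and 0.00771. Abce1 passed in no other of the 10 alternatives and, without KO3 aside, in none of the 6 left-out fits. Abce1 lies on the minus strand at chr8:79683462-79711740 and is overlapped by Gm27006 on the opposite strand.

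Abcf2, a soluble ATPase like Abcf3, had 68.6, 90.1 and 77.5 CPM in WT and 106, 91.1 and 116 CPM in KO. WT2 and KO2 differed by 1 CPM, and the log2 fold change was 0.41 ± 0.15 (SE, unadjusted p = 0.0292, quasi-likelihood adjusted p = 0.129). Abcf3 had 35.3, 48.8 and 40.9 CPM in WT and 55.0, 57.4 and 50.4 CPM in KO, with a log2 fold change of 0.38 ± 0.15 (SE, unadjusted p = 0.0379, quasi-likelihood adjusted p = 0.147). Neither gene's groups overlapped, and neither passed under any alternative. Abcf1, which works with the initiation factor eIF2, had 149 ± 11.1 and 157 ± 4.18 CPM (SD, n = 3). The 9 tested genes of ribosome recycling and termination had a median log2 fold change of 0.45, with 7 above 0. All 7 had an unadjusted p under 0.05, but 0 passed with the quasi-likelihood test, against 1 with the exact test and 5 with DESeq2.

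In the G subfamily no member passed in the quasi-likelihood test. Abcg4, a sterol exporter known mainly from brain, had 15.5, 14.9 and 15.2 CPM in WT and 26.8, 21.8 and 18.0 CPM in the libraries labelled KO. WT was very tight and every KO library lay above it, with a log2 fold change of 0.54 ± 0.17 (SE, unadjusted p = 0.0143, quasi-likelihood adjusted p = 0.0927). The adjusted p was 0.0289 with DESeq2 and 0.0106 without KO3. Abcg4 passed in no other of the 10 alternatives and in no other of the 6 left-out fits. Abcg1, which exports cholesterol to lipoproteins, had 32.8 ± 4.35 CPM in WT and 38.2 ± 5.78 CPM in KO. Abcg2, the breast cancer resistance protein, had 17.0 ± 4.48 and 15.4 ± 2.74 CPM, and the mouse gene Abcg3 had 0.746 ± 0.246 and 1.21 ± 0.493 CPM (SD, n = 3). The 13 tested genes of sterol efflux and its receptors, the LXR proteins, had a median log2 fold change of -0.22, with 0 passing the quasi-likelihood or the exact test, 1 higher and 1 lower at an unadjusted p under 0.05, and 1 higher with DESeq2. Across the family, 26 members had an unadjusted p of at least 0.05, with 11 above 0 and 15 below, from -0.35 for Abca8a to 0.71 for Abcg3 and adjusted p of 0.181 to 0.897.

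Levels of different genes were ranked only per kilobase of exon. In WT the highest levels were those of Abcf1 at 33.8 ± 2.51, Abcf2 at 30.6 ± 4.21 and Abcd3 at 23.8 ± 3.82 CPM per kb (SD, n = 3), and the first pair did not differ beyond its spread. A step followed to Abcf3 at 11.7 ± 1.91, Abcc1 at 11.7 ± 1.30 and Abca1 at 11.2 ± 1.64 CPM per kb, which could not be separated on this scale, and Abca12 stood at rank 12 of 39 with 9.13 ± 2.43. Per kilobase of the longest transcript the order changed, with Abcc1 at 26.0 (rank 4), Abcf3 at 13.5 (rank 8) and Abca1 at 11.3 (rank 11), so the step and the tie depended on the length used. In the libraries labelled KO, Abca12 stood at rank 3 with 31.6 ± 14.0 CPM per kb, a spread that covers the levels of Abcf2, Abcf1 and Abcd3. Abcb5 moved from the last rank, at 0.00276 CPM per kb, to rank 23 at 3.78 ± 2.12, and Abcc3 from rank 30 to rank 19. The low end in WT besides Abcb5 was held by Abcg3 at 0.21, Abca4 at 0.316 and Abcc6 at 0.329 CPM per kb.

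**Figure D3:**
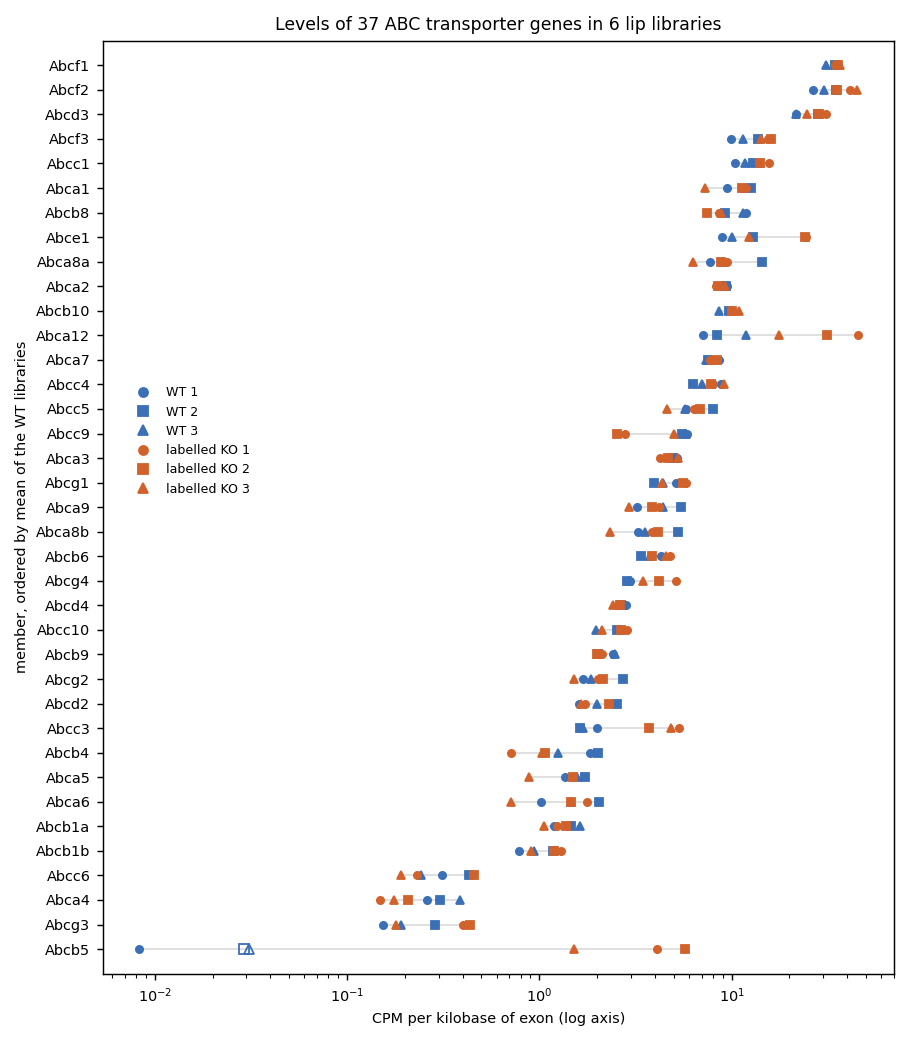
Level of 37 ABC members in CPM per kilobase of exon (logarithmic axis) in each of the 6 libraries, 1 point a library, ordered by the WT mean. Open symbols stand at the level of 3 counts for the WT libraries in which Abcb5 had 0 counts, and the lowest Abcb5 point is WT1 with 1 count. Abcf1 has the highest WT mean, 33.8, and the 3 KO points of Abcb5 lie far to the right of its WT points.

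KO3 was the KO library nearest to the WT mean for 9 of the 13 members with an unadjusted p under 0.05, and KO2 was for the other 4. The share for KO3 was thus 69.2%, against 3258 of 4439 genes, 73.4%, over the whole table at that threshold. Among the rises, Abcb5 had 6.63 CPM in KO3 against 18.0 and 25.02 in the other KO libraries, and Abca12 had 262 CPM against 677 and 466. Abcc3 did not follow this order, since KO2 had its lowest KO value. Annotation also bears on single values, since 13 of the 39 members overlap a gene on the opposite strand and 9 share exonic sequence with another gene, and the sources used here do not say whether counting used strand.

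**Figure D4:**
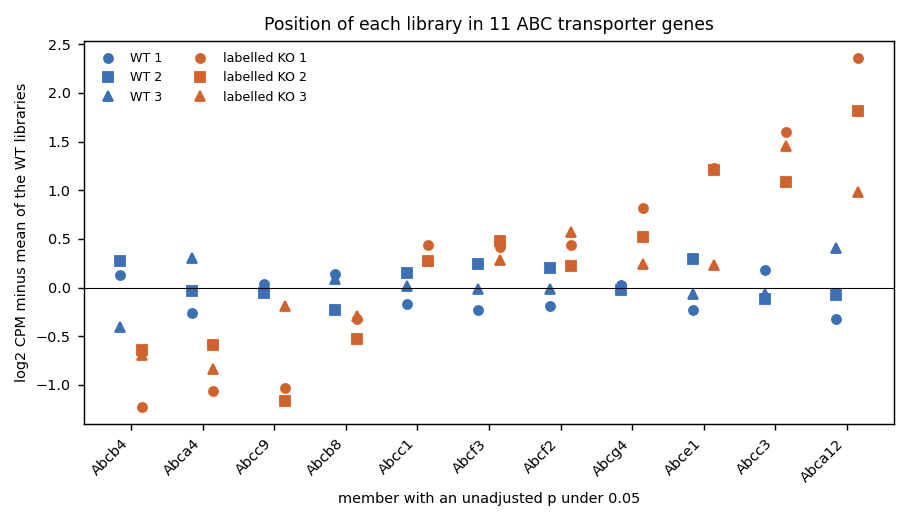
Position of each library against the WT mean, as log2 CPM minus the mean log2 CPM of the 3 WT libraries (with 0.01 CPM added), for 11 of the members with an unadjusted p under 0.05, Abcb5 not among them. KO3 is the KO point nearest to 0 for 7 of these 11.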

How the data were processed

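Lip RNA was sequenced as 3 WT and 3 KO libraries. The authors aligned reads with TopHat2 2.0.8 and Bowtie2 2.1.0 to GRCm38 and counted them with HTSeq, and they deposited unnormalized read counts per gene. No version of HTSeq is given in the sources used here. The 15009 genes that reached 1 CPM in 3 or more libraries were fitted in edgeR 4.0.16 (R 4.3.3) with TMM factors and the quasi-likelihood test, and p-values were adjusted by the Benjamini-Hochberg method over all of them at a threshold of 0.05. CPM in the text use TMM factors. The script was tested on simulated data. DESeq2 1.42.0, limma 3.58.1, other scalings and filters, and left-out libraries were alternatives. Exon lengths came from a GENCODE annotation and promoters from RefSeq, both of GRCm38. Roles and lists were also counted with the exact test, DESeq2 and limma-voom. Family rows were named and members with an unadjusted p under 0.05 were given per library, except 2 members that enter the counts and are not reported here. The members and gene lists were chosen with earlier results of these data known. Counting limits, such as the bound from 3 counts, cover counting error only, and with 3 against 3 mice an exact permutation test cannot go below 0.1, so none was run.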

Additional observations from a re-analysis of the deposited data

How the results depend on the processing

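Against 3 members higher and 0 lower, the exact test of edgeR gave 4 and 3 (Abca4, Abcb4 and Abcc9), DESeq2 gave 6 and 1 (Abcb4), and an adjusted p under 0.1 gave 5 and 3. At that last threshold 1248 of all 15009 genes were higher and 1281 lower. Over the left-out libraries the counts ran from 1 (without KO2) to 6 (without KO3) higher and from 0 to 4 lower, the 4 also without KO3, while the calls over all genes ran from 1.53% without KO2 to 33% without KO3. Abcb5 could not be tested without KO1, KO2 or KO3. The replicate block gave 2 higher, Abcb5 and Abcc3, and 0 lower, 5.13% of the members against 5.31% of all genes. Abcb5 entered that fit only through its KO libraries and could pass only as higher, which leaves Abcc3 beside it. Abca12 had 1.73 on the log2 scale there (quasi-likelihood adjusted p = 0.0581). Deviations of same-numbered libraries from their group means correlated at -0.19, 0.29 and 0.31, and not every library correlated best with its own number, so the numbers were not taken as pairs. The filter of 10 counts in every library gave 2 because Abcb5 could not be tested, and no filter gave 4, with Abcb11 added. The shares were 5.26% against 4.57% of all genes with the stricter filter and 8.33% against 4.17% without one. None of the 13 members with an unadjusted p under 0.05 changed direction in any setting that tested it. Abcb5, with 1, 0 and 0 counts in WT, could not have done so. Of the other 26, Abca7 changed direction with upper-quartile factors, and 9 of 25 did without WT2, 5 without KO3, 3 without KO1 and 2 without WT3. Per kilobase of the longest transcript in place of all exons, WT levels were 47.2 for Abcf1, 44.9 for Abcd3, 26.0 for Abcc1, 14.8 for Abca12 and 0.524 for Abca4, and Abca12 stood at 51.2 in KO. Depth limits Abcb5 in WT, where 3 counts correspond to 0.109 to 0.135 CPM.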

Other observations

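ABC proteins with other symbols were looked at beside the family. Tap1, a subunit of the transporter that carries peptides to MHC class I molecules, had 48.5, 32.4 and 38.7 CPM in WT and 64.4, 96.2 and 116 CPM in the libraries labelled KO. The groups did not overlap, and it rose by 1.21 on the log2 scale (quasi-likelihood adjusted p = 0.0266). In contrast to most members above, KO3 had the highest value. Its partner Tap2 had 22.4 ± 3.93 CPM in WT and 32.8 ± 10.3 CPM in KO (SD, n = 3), with KO1 inside the WT range and an adjusted p of 0.18 in that test. Cftr did not reach the expression filter.

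Marker lists of other lip cells were also measured. Hair follicle markers had values below 0 for all 11 genes and summed to 8814 to 11247 CPM in WT and 5740 to 7496 CPM in the libraries labelled KO. Of the 11, 1 fell in the quasi-likelihood test, 4 in the exact test and 3 with DESeq2, and 9 were lower at an unadjusted p under 0.05. The 7 wound keratinocyte markers were all above 0 and summed to 3929 to 5691 CPM in WT and 6088 to 9547 CPM in KO. Among them 2 rose in the quasi-likelihood test, 4 in the exact test and 3 with DESeq2, and 3 were higher at an unadjusted p under 0.05. Sums for 8 endothelial markers were 231 to 277 CPM in WT and 150 to 262 CPM in KO, and for 6 Schwann cell markers 524 to 548 and 263 to 468 CPM. None of either list passed the quasi-likelihood test (unadjusted p under 0.05 in 2 and 3 genes, 1 and 2 lower with the exact test, and 1 lower in each with DESeq2). Sums of the 8 adipocyte markers were 111 to 164 CPM in WT and 80.3 to 88.1 CPM in KO. Of these 8, 1 fell in the quasi-likelihood test, 3 in the exact test and 1 with DESeq2, and 4 were lower at an unadjusted p under 0.05. Sebocyte markers, of which 1 rose and 2 fell among 8 tested, summed to 1327 to 1704 CPM in WT and 1170 to 1377 CPM in KO. Macrophage markers summed to 440 to 495 and 344 to 469 CPM, with none of 7 tested passing with the quasi-likelihood test, the exact test or DESeq2 and 2 lower at an unadjusted p under 0.05. T cell markers, with Cd8a at 0 in a library, had a median log2 fold change of 0.67 and 5 of 5 tested above 0, and summed to 7.06 to 11.1 CPM in WT and to 9.26, 15.5 and 19.0 CPM in KO1, KO2 and KO3. None passed the quasi-likelihood test, with 2 higher at an unadjusted p under 0.05 and 1 higher with each of the exact test and DESeq2.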
